A study of Mus musculus with 8 samples.

Results

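The cardiac transcription factors described here are 10 genes that were chosen by name from the 55679 genes of the deposited table: Gata4, Gata6, Nkx2-5, Tbx5, Tbx20, Hand2, Mef2a, Mef2c, Mef2d and Srf. All 10 were found, once each. Their messages were measured by RNA-seq in the left ventricle of male wild-type C57BL/6J mice, 4 of which received saline for 7 days (control) and 4 of which received 1500 ng/kg/min of angiotensin II, a vasoconstrictor peptide hormone, for 7 days (ANG II). Both solutions came from osmotic mini-pumps placed under the skin, and hearts were flushed with saline before the ventricle was taken. The age of the mice was not given in the sources used here. The study describes more biological replicates per group than these, and the others were not analysed here. The p-values below measure only the spread between these libraries.

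These factors form the network that builds and maintains heart muscle. Gata4 and Gata6 encode zinc finger proteins that bind GATA sequences, and Gata4 is a known mediator of hypertrophic signals in cardiomyocytes. Nkx2-5 encodes a homeobox protein, Tbx5 and Tbx20 encode T-box proteins, and Hand2 encodes a basic helix-loop-helix protein, all needed for heart formation. Mef2a, Mef2c, Mef2d and Srf encode MADS-box proteins, which switch on contractile genes through MEF2 sites and through CArG boxes, respectively. Much of the control of these proteins is known to act on the protein, by phosphorylation or by partners that enter or leave the nucleus, and a message level does not measure it.

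The promoters of 4 factors are shown because the factors are known to regulate one another and because these 4 span the range of responses described below. They are RefSeq windows on GRCm38.p6, from 250 bases before to 50 bases after the start of transcription, and 7 of the 10 factors had at least 1 window. Capitals mark a CArG box, a MEF2 site, a GATA site core (GATAA), an NKX site core (TNAAGTG) or a T-box site core (AGGTGT), each searched on both strands. No marked stretch overlaps another. Srf (chr17:46556113-46556412, minus strand) held 2 CArG boxes, the site that its own protein binds. Mef2a (chr7:67372809-67373108, minus strand) held 1 MEF2 site, which spans the start of transcription. Hand2 (chr8:57320733-57321032, plus strand) held 2 GATA site cores, and Tbx20 (chr9:24774254-24774553, minus strand) held no match to any of the 5.
Srf: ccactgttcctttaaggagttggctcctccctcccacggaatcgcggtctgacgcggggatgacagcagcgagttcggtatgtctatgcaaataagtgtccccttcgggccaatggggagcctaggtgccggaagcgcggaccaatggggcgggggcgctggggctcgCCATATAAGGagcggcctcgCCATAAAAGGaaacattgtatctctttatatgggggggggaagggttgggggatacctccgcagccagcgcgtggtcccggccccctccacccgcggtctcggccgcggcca
Mef2a: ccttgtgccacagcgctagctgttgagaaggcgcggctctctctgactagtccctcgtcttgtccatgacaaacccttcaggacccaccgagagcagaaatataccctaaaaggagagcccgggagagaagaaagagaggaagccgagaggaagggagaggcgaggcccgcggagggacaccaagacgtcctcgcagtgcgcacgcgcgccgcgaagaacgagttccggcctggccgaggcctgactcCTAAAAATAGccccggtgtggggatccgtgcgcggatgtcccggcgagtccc
Hand2: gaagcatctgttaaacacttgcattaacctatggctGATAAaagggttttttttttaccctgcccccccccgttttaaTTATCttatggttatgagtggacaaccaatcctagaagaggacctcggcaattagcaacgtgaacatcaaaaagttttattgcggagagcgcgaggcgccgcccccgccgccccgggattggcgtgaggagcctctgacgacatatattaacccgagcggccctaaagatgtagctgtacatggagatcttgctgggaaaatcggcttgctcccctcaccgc
Tbx20: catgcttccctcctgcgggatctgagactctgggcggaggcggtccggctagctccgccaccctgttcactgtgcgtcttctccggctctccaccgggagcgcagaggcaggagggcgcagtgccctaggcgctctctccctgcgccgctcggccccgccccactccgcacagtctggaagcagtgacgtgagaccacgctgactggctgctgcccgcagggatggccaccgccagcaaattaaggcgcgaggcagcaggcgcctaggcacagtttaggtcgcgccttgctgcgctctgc
Of all 32851 RefSeq windows of this length, 1.63% held a CArG box, 3.19% a MEF2 site, 25.4% the GATA, 11.5% the NKX and 13.7% the T-box site core. Of the windows not printed, 1 of the 3 of Mef2c held 2 GATA cores and 1 T-box core, and those of Mef2d and Nkx2-5 held none of the 5. A match describes the letters only.

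The libraries held 14455654 to 16564908 fragments, and each factor rested on between 206 fragments (Tbx5) and 3636 fragments (Mef2a) per library. An extraction note in the labels speaks of CRC cells, whereas all 8 libraries held the 10 cardiomyocyte markers at a summed level of 25951.5 to 35911 FPKM. Some of the cell type markers moved between groups. All 8 fibroblast markers (summed level 535 to 794 FPKM in control and 2839.6 to 3318 in ANG II) and all 7 macrophage markers (134 to 168 and 337 to 448 FPKM) were called higher in ANG II, as were 1 of 7 endothelial and 2 of 7 smooth muscle and pericyte markers. Of all genes tested, 14.0% were called higher and 1.41% lower, so the endothelial count is near the general share. Of the cardiomyocyte markers 2 of 10 were called lower, and their summed level ran from 35117 to 35911 FPKM in control and from 25951.5 to 27726 in ANG II. The 5 atrial markers, of which 4 were tested and 2 called higher, summed to 2.34 FPKM in control 3 and to between 29.0 and 54.3 in the other controls, against 68.0 to 246 in ANG II, with the highest value in ANG II 3. Mesothelial markers gave no call among 5. Of the 5 skeletal muscle markers, 4 were tested and 1 was called higher, while Myh4 was listed at 0 throughout. In such tissue, fewer cells of a type and less RNA per cell cannot be told apart.

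The first question was whether ANG II infusion changes the messages of the factors themselves. None of the 10 was called in either direction (limma on log2(FPKM + 1), adjusted p under 0.05 and absolute log2 fold change above 0.5), against 15.4% of all 19364 genes tested, of which 14.0% were higher and 1.41% lower. An unadjusted p under 0.05 was reached by 3 of them, Tbx20, Mef2c and Hand2, beside 8323 of all 19364 genes. Voom on the recovered fragments also called 0 of the 10, and 3988 of 19076 genes in all. By adjusted p alone, Tbx20 and Mef2c were higher in ANG II, or 2 of 10 against 33.3% of all genes (28.4% higher and 4.91% lower). The same 2 were the only factors whose groups did not overlap, against 33.7% of all genes (28.7% higher and 5.06% lower). The median log2 fold change of the 10 was -0.01 (range -0.12 to 0.44) and that of all genes 0.15, while the median absolute value was 0.11 for the factors and 0.21 for all genes. For 8 factors, all but Tbx20 and Hand2, the 95% interval of the log2 fold change lay inside the threshold on both sides with values as deposited, and these 8 intervals reached from -0.32 to 0.45. Under other scalings an interval passed the threshold for Srf (to -0.54) and Nkx2-5 (to -0.53) with median-of-ratios scaling, for Tbx5 (to -0.56) with quantile normalization, and for Mef2c (to 0.65) and Tbx5 (to 0.51) when centred on cardiomyocyte markers.

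**Figure D1:**
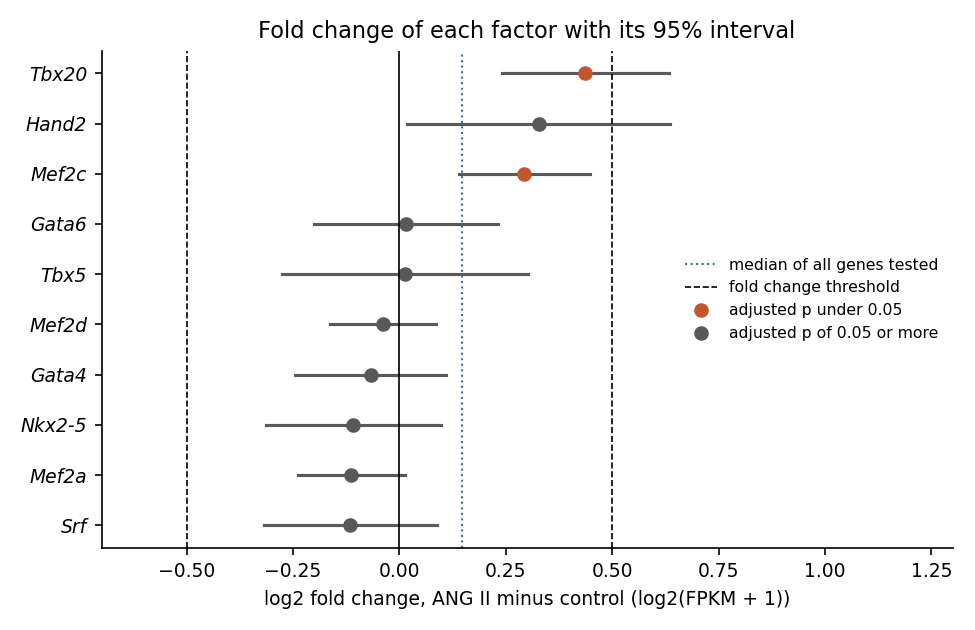
Log2 fold change (ANG II minus control, on the log2(FPKM + 1) scale) of each factor, with points for limma's estimate and bars for its 95% interval; dashed lines mark 0.5 in each direction and the dotted line the median of all genes tested. Tbx20 at 0.44, Hand2 at 0.33 and Mef2c at 0.29 stand to the right of the other 7, which lie between -0.12 and 0.02; with libraries scaled on cardiomyocyte markers all 10 lie above 0.

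FPKM is scaled per length, here the mean length of a gene's annotated transcripts. The order of levels between genes, and the family sums, shares and ratio levels below, depend on that length, and no other length was tried. For Srf it was 1056 bases, whereas its exons cover 2893 bases. Srf rested on 1223 to 1730 fragments per library, against 3062 to 3636 for Mef2a. In control, Srf had the highest FPKM at 96.9 ± 9.95 (SD, n = 4), followed by Mef2d at 80.5 ± 2.38 and Mef2a at 80.2 ± 3.57 FPKM, whose values overlapped. Gata4 at 58.6 ± 2.37 FPKM overlapped with neither neighbour in this order. Tbx20, Nkx2-5, Gata6 and Mef2c followed at means from 43.2 to 34.3 FPKM, each overlapping with the next. Hand2 and Tbx5 were lowest, at 9.23 ± 1.94 and 8.78 ± 1.83 FPKM, and overlapped with each other. In ANG II the order was kept except that Tbx20 stood above Gata4 and Mef2c above Nkx2-5 and Gata6, although Tbx20 overlapped with Gata4, and Mef2c with both Nkx2-5 and Gata6.

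**Figure D2:**
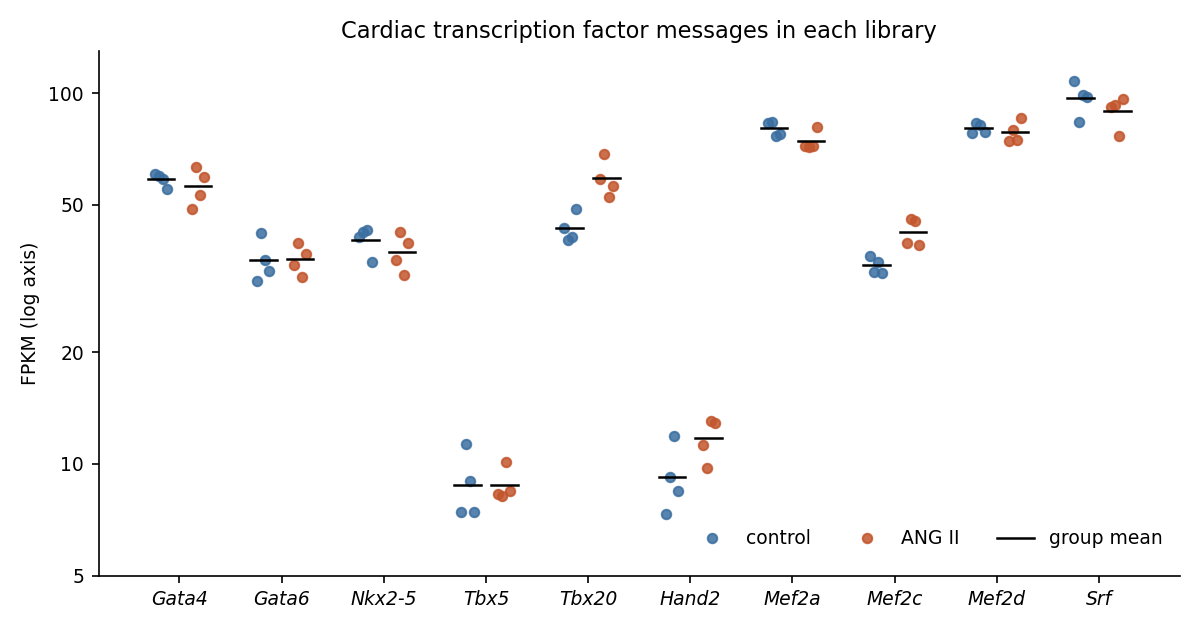
FPKM of each factor (log axis) in the 4 control and the 4 ANG II libraries, with a point per library and a line at each group mean. The ANG II points of Tbx20 (52.4 to 68.3 FPKM) and Mef2c (38.9 to 45.7 FPKM) all sit above their control points, while the groups overlap at the other 8.

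Tbx20 (ENSMUSG00000031965, chromosome 9, 24718138 to 24774303, GRCm38) encodes a T-box protein that the adult heart needs to keep its function. It stood at 43.2, 40.2, 40.8 and 48.5 FPKM in control 1 to 4 and at 58.7, 68.3, 52.4 and 56.3 FPKM in ANG II 1 to 4. Every ANG II library was above every control, and ANG II 2 was the highest. Limma gave a log2 fold change of 0.44 (SE 0.0877, 95% interval 0.24 to 0.63, adjusted p = 0.00396), the largest among the 10, so that the adjusted p passed and the fold change threshold did not. The value was 0.29 above the median of all genes. It was higher in ANG II in all 20 alternatives, with log2 fold changes from 0.21 to 0.63 and adjusted p from 0.000178 to 0.134. Scaled on cardiomyocyte markers it was called at 0.63, whereas it no longer passed with median-of-ratios scaling (0.21, adjusted p = 0.134) or without mitochondrially encoded and top 10 genes (0.26, adjusted p = 0.0590).

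The fibroblast and macrophage markers listed above rose in the same libraries. Their part in the value of any of the 10 factors was not tested, also for those whose messages are known from non-muscle cells of the heart. The summed level of the cardiomyocyte markers was lower in ANG II, with 6 of the 10 log2 fold changes below 0 and 4 above.

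The other T-box factor, Tbx5 (ENSMUSG00000018263, chromosome 5, 119832668 to 119885219), is known for higher levels in the atria and in the conduction system. It was at 7.41, 11.3, 9.01 and 7.41 FPKM in control and at 8.30, 8.22, 10.1 and 8.46 FPKM in ANG II. The ANG II values lay inside the control range, and the log2 fold change was 0.01 (95% interval -0.28 to 0.30, limma adjusted p = 0.953). Its sign turned with median-of-ratios scaling (-0.19), quantile normalization (-0.27) and removal of mitochondrially encoded and top 10 genes (-0.15). ANG II 3, the library with the most atrial marker signal, had the highest ANG II value, while control 3, with the least, had the second highest control value. The ratio of Tbx5 to Tbx20 within a library, which a single scaling factor per library leaves as it is, averaged 0.206 ± 0.0573 in control against 0.151 ± 0.0305 in ANG II (SD over 4 libraries). On the log2 scale the difference was -0.43 and not beyond the spread (exact two-sided permutation p = 0.143, 0.190 adjusted over the 4 ratios computed, with 0.0286 the smallest possible).

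Of the MADS-box factors, Mef2c (ENSMUSG00000005583, chromosome 13, 83504034 to 83667080) is the form required earliest in heart development. It was at 36.4, 33.02, 34.98 and 32.8 FPKM in control and at 39.5, 45.7, 45.2 and 38.9 FPKM in ANG II. The lowest ANG II library was above the highest control. Its log2 fold change was 0.29 (SE 0.0687, 95% interval 0.14 to 0.45, limma adjusted p = 0.00875), which passed the adjusted p but not the fold change threshold. This direction held in all 20 alternatives (0.07 to 0.48, adjusted p from 0.000564 to 0.541), and the adjusted p was lost with median-of-ratios scaling (0.541), quantile normalization (0.293) and removal of mitochondrially encoded and top 10 genes (0.232).

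Mef2a (ENSMUSG00000030557, chromosome 7, 67231163 to 67372858), whose loss is known to impair the mouse heart, was at 83.0, 83.6, 76.8 and 77.6 FPKM in control. In ANG II it was at 72.2, 71.3, 72.0 and 81.0 FPKM. ANG II 1 to 3 lay within 1 FPKM of each other and below all controls, whereas ANG II 4 lay among the controls. The log2 fold change was -0.11 (SE 0.0562, limma adjusted p = 0.152), and without ANG II 4 it was -0.16 with an adjusted p of 0.0495 (range over the alternatives 0.000791 to 0.374). Mef2d (ENSMUSG00000001419, chromosome 3, 88142372 to 88172086), a form known to drive stress-dependent remodelling, was at 78.2, 83.0, 82.0 and 78.7 FPKM in control and at 74.1, 79.6, 74.7 and 85.5 FPKM in ANG II, with a log2 fold change of -0.04 (95% interval -0.16 to 0.09, limma adjusted p = 0.639). With median-of-ratios scaling the log2 fold change of Mef2d was -0.26 (limma adjusted p = 0.00703), and centred on cardiomyocyte markers it was 0.15 (0.0438). Genes of the other strand cover 2.06% of the exon length of Mef2a and 8.87% of that of Mef2d, and whether counting used strand was not stated.

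Taken as a family, the 3 Mef2 messages summed to 195.0 ± 4.68 FPKM in control against 194.9 ± 8.30 FPKM in ANG II (SD over 4 libraries). Mef2c made up 18.4, 16.5, 18.1 and 17.3% of the sum in control and 21.3, 23.3, 23.6 and 18.9% in ANG II. Mef2a made up 39.6 to 42.0% in control and 36.3 to 39.4% in ANG II, and Mef2d 39.6 to 42.3% and 38.9 to 41.6%. The groups did not overlap for Mef2c and Mef2a and overlapped for Mef2d; these shares were not tested. ANG II 4 lay nearest to the controls for both. The ratio of Mef2c to Mef2d averaged 0.427 ± 0.0286 in control against 0.542 ± 0.0652 in ANG II, a difference of 0.34 on the log2 scale with 3 of 4 ANG II libraries above all controls (p = 0.0571 by the same exact permutation test, adjusted 0.190). For Mef2a to Mef2d the ratio was 0.998 ± 0.0517 and 0.946 ± 0.0348, a log2 difference of -0.08 (p = 0.143 by the exact permutation test, adjusted 0.190).

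**Figure D3:**
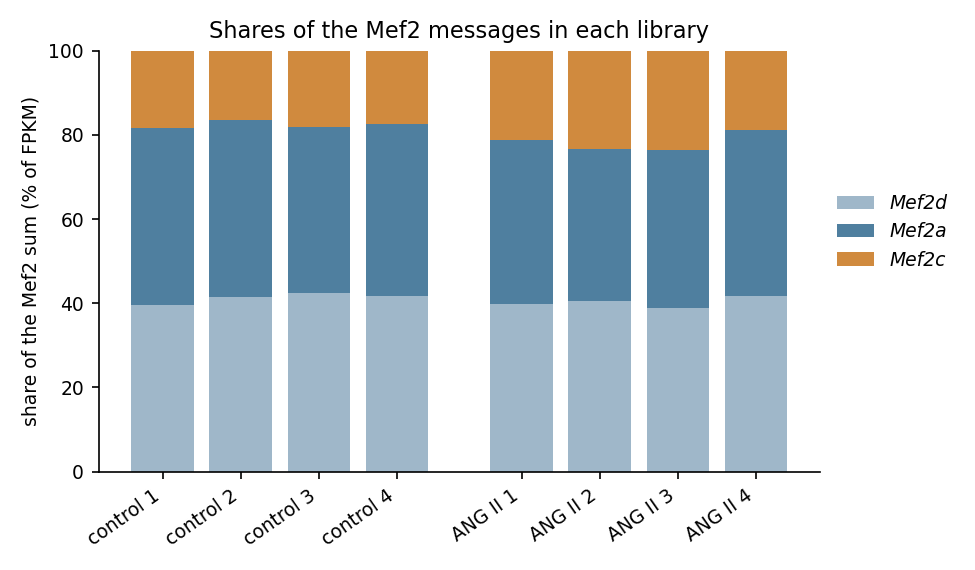
Share of Mef2d, Mef2a and Mef2c in the sum of their FPKM (% of the sum, stacked bars starting at 0) in each of the 4 control and 4 ANG II libraries. The top segment, Mef2c, takes 16.5 to 18.4% in control and 18.9 to 23.6% in ANG II.

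Srf (ENSMUSG00000015605, chromosome 17, 46548329 to 46556175) encodes serum response factor, which acts on immediate early and contractile genes. Its message, whose promoter window holds the 2 CArG boxes printed above, was at 107.8, 83.7, 98.9 and 97.3 FPKM in control and at 91.6, 92.8, 76.6 and 96.6 FPKM in ANG II. All ANG II libraries lay below the control mean, but the groups overlapped. With values as deposited the log2 fold change was -0.12 (95% interval -0.32 to 0.09, limma adjusted p = 0.369). It was -0.34 with median-of-ratios scaling (limma adjusted p = 0.0171) and -0.29 with quantile normalization (0.0376). Without mitochondrially encoded and top 10 genes it was also -0.29 (0.0378). Centred on cardiomyocyte markers it was 0.076 (0.494).

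Neither zinc finger factor passed the adjusted p with values as deposited. Gata4 (ENSMUSG00000021944, chromosome 14, 63198922 to 63271692) was at 60.6, 59.9, 58.6 and 55.2 FPKM in control and at 48.6, 63.4, 53.1 and 59.2 FPKM in ANG II. The ANG II values reached both below and above the control range. Its log2 fold change was -0.07 (95% interval -0.25 to 0.11, limma adjusted p = 0.55), and with median-of-ratios scaling -0.29 (adjusted p = 0.0236, range over the alternatives 0.0236 to 0.982). Gata6 (ENSMUSG00000005836, chromosome 18, 11052064 to 11085635) was at 31.1, 41.9, 35.4 and 33.1 FPKM in control and at 34.5, 39.4, 31.8 and 36.9 FPKM in ANG II, all of the latter inside the control range, with a log2 fold change of 0.02 (95% interval -0.20 to 0.23, limma adjusted p = 0.920). Gata4 exceeded Gata6 in every library, by a ratio of 1.68 ± 0.212 in control against 1.57 ± 0.113 in ANG II (SD over 4 libraries, exact permutation p = 0.371, adjusted 0.371).

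Nkx2-5 (ENSMUSG00000015579, chromosome 17, 26838664 to 26845009), a partner of Gata4 and Tbx5 on heart promoters, was at 40.9, 42.2, 42.7 and 35.02 FPKM in control and at 35.5, 42.1, 32.2 and 39.4 FPKM in ANG II. The groups overlapped, and with values as deposited the log2 fold change was -0.11 (95% interval -0.31 to 0.10, limma adjusted p = 0.401). It was -0.33 with median-of-ratios scaling (limma adjusted p = 0.0213) and -0.29 with quantile normalization (0.0364). Without mitochondrially encoded and top 10 genes it was -0.28 (0.0422). Centred on cardiomyocyte markers it was 0.082 (0.389).

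Hand2 (ENSMUSG00000038193, chromosome 8, 57320983 to 57324633) was at 7.33, 9.23, 11.9 and 8.45 FPKM in control and at 11.3, 9.76, 13.1 and 12.9 FPKM in ANG II. All ANG II libraries lay above the control mean and 2 of 4 above every control, control 3 being the exception among the controls. The log2 fold change was 0.33 (SE 0.138, 95% interval 0.02 to 0.64) with a limma adjusted p of 0.0977, and the value understates the change slightly because of the pseudocount (0.36 with a pseudocount of 0.1). It was 0.44 without control 3 (adjusted p = 0.0226) and 0.23 without control 1 (adjusted p = 0.224). Over all 20 alternatives it stayed above 0, from 0.071 with quantile normalization to 0.52 when centred on cardiomyocyte markers, with adjusted p from 0.0120 to 0.751. Hand2 is uncertain for another reason. Hand2os1, a noncoding gene of the other strand, covers 19.6% of the exon length of Hand2. Of the 50-base words of Hand2, 15.8% occur on either strand in transcripts of other genes, most often in Hand2os1, so these shares are not separate grounds. Hand2os1 was more abundant, at 53.4, 51.2, 54.2 and 52.9 FPKM in control and at 52.8, 52.0, 62.1 and 60.5 FPKM in ANG II. ANG II 3, ANG II 4 and control 3 were the highest of their groups in both genes, whereas control 1 and ANG II 1 were close in Hand2os1 and apart in Hand2. The part of Hand2os1 in the value of Hand2 was not tested.

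The spread between libraries can be set beside the counting error. Tbx5 rested on 206 to 317 fragments per library, which gives a counting error of 5.62 to 6.97%, against a coefficient of variation of 20.9% in control and 10.2% in ANG II. For Hand2, with 249 to 483 fragments, the counting error was 4.55 to 6.34% and the coefficient of variation 21.03 and 13.1%. For Mef2a and Mef2d, the counting error stayed between 1.66 and 2.12% and the coefficient of variation between 2.96 and 6.79%. These counting errors assume independent fragments, which PCR copies are not.

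Coregulators are genes whose proteins bind or modify these factors. Of 16, 1 was called higher and 1 lower, or 2 of 16 against the 15.4% given above, and their median log2 fold change was -0.04. Mrtfa (listed as Mkl1), which carries actin signals to Srf, was at 4.17, 3.98, 4.77 and 4.28 FPKM in control and at 6.97, 7.29, 6.65 and 8.26 FPKM in ANG II. The groups were far apart, and the log2 fold change was 0.64 (SE 0.0913, limma adjusted p = 0.000584). Hopx, a homeobox protein without DNA binding that restrains Srf, fell from 62.4, 62.2, 54.8 and 51.0 FPKM in control to 24.1, 23.7, 37.9 and 30.7 FPKM in ANG II, a log2 difference of -0.98 (SE 0.140, limma adjusted p = 0.000598). Hopxos, on the other strand, covers 27.2% of the exon length of Hopx, which makes this value uncertain. Mrtfb (0.32) and Hdac7 (0.37), named after their values were seen, passed the adjusted p only. Fhl2, the most abundant of the list in control, had 1546 ± 78.5 FPKM there against 1514 ± 72.6 FPKM in ANG II (SD over 4 libraries, log2 fold change -0.03). Mrtfa was no longer called under median-of-ratios scaling, under quantile normalization or without mitochondrially encoded and top 10 genes, while Hopx was called lower under all 3. Quantile normalization also called Myocd lower, a gene named after its value was seen.

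Of 18 relatives of the 10 factors, 9 reached a mean of 1 FPKM. In all, 13 reached a mean of 0.1 FPKM and were tested, and 2 of these 13 were called, both higher, against 14.0% of all genes called higher, which is near the same share. The median log2 fold change of the 13 was 0.11. Both are T-box repressors. Tbx2, which keeps chamber genes off in nonchamber muscle, went from 2.67, 3.76, 2.18 and 2.52 FPKM in control to 4.33, 4.67, 4.49 and 4.92 FPKM in ANG II (log2 fold change 0.58, SE 0.128, limma adjusted p = 0.00643). Tbx18, known from epicardium and pericytes, went from 2.36, 2.09, 1.33 and 2.10 to 4.16, 3.52, 4.33 and 3.31 FPKM (log2 fold change 0.71, SE 0.137, limma adjusted p = 0.00321), but an other-strand gene, D030062O11Rik, covers 20.6% of its exons. In both, no ANG II library overlapped with a control. At such low levels the pseudocount makes the log2 fold changes smaller. Neither was called under quantile normalization, and Tbx2 was also lost under median-of-ratios scaling and without mitochondrially encoded and top 10 genes. Tbx3, named after its value was seen, passed the adjusted p alone (0.32). Meis2 was the most abundant relative in control, at 13.6 ± 2.03 FPKM against 14.6 ± 0.782 FPKM in ANG II (SD over 4 libraries, log2 fold change 0.11). Mef2b was at or below 0.23 FPKM and Hand1 at or below 0.05 FPKM in every library, while Nkx2-6 was listed at 0; they too were named after their values were seen.

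Among 27 genes with well-known sites for these factors, 6 were called higher and 2 lower, against 14.0% higher and 1.41% lower of all genes. With only genes averaging 1 FPKM or more, 6 of 26 were called higher and 2 lower, beside 2435 and 240 of all 12947 such genes. The median absolute log2 fold change of the 27 was 0.38, beside 0.11 for the 10 factors and 0.21 for all genes, and the difference between these lists was not tested. Nppa, the atrial natriuretic peptide and a classical target of Gata4, Nkx2-5 and Tbx5, ranged from 6.56 to 11.1 FPKM in control against 108.5 to 161 FPKM in ANG II, a log2 fold change of 3.89, and Myh7, the slow myosin heavy chain, had one of 3.64. The atrial markers above summed to 2.34 to 54.3 FPKM in control and 68.0 to 246 in ANG II, and the part of atrial tissue in the value of Nppa was not tested. Ankrd1 (1.53), skeletal actin Acta1 (1.25), Fos (1.06), an immediate early target of Srf, and desmin, Des (0.92), were also called higher, although for Acta1 the groups overlapped (563.8 FPKM in ANG II 3 and 743 FPKM in control 4). Fos stood at 5.75 to 7.35 FPKM in control and at 9.36, 13.2, 12.2 and 29.7 FPKM in ANG II, with ANG II 4 far above the rest. The 2 called lower, named after their values were seen, were Myh6 (-0.55), the fast myosin heavy chain, and Tnni3 (-0.58), cardiac troponin I, and both are among the cardiomyocyte markers above. Neither was called under quantile normalization or when centred on the cardiomyocyte markers to which both belong, and both are among the abundant genes left out with the top 10. Fos was lost under quantile normalization and without control 3 and ANG II 3. Myl2, the target with the highest level in control, stood at 10947 ± 560.1 FPKM there against 7890.4 ± 745 FPKM in ANG II (SD over 4 libraries, log2 fold change -0.48), which passed the adjusted p alone (limma, 0.00489). An other-strand gene covers 61.5% of the exons of Nppa, and other-strand genes cover 13.3% of those of Myh7. Of the 50-base words of Myh7, 20.04% occur on either strand in transcripts of other genes, most often in Myh6. Tagln was listed at 0.39 FPKM or less in all libraries and 67.9% of its exons lie under other-strand genes, so its value is doubtful.

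**Figure D4:**
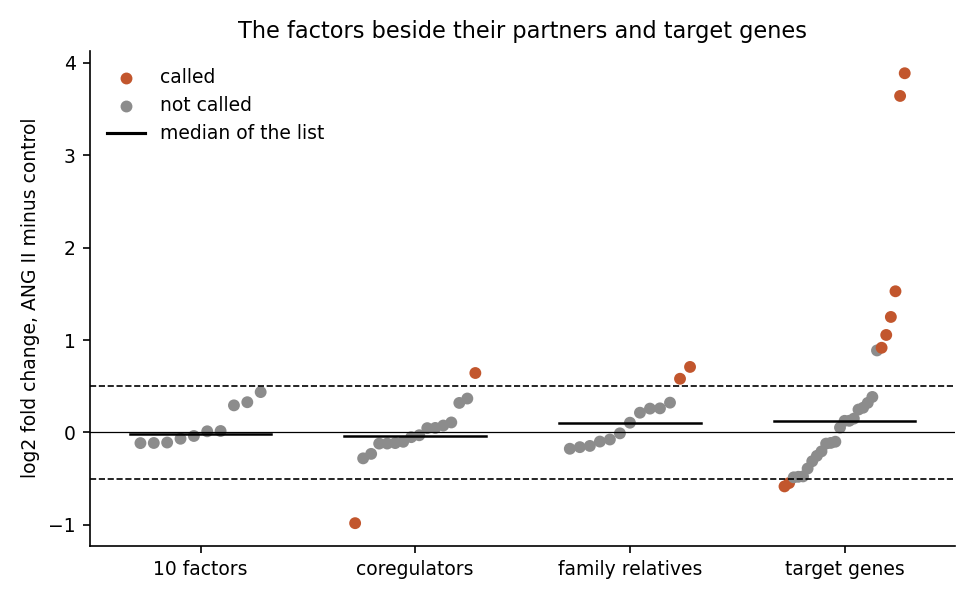
Log2 fold change (ANG II minus control) of the 10 factors, their coregulators, their family relatives and their target genes, with a point per tested gene in rising order, orange where called, and a line at the median of the list; dashed lines mark 0.5 in each direction. The factors run from -0.12 to 0.44 with 0 called, and the target genes from -0.58 to 3.89 with 8 called.

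How libraries are scaled decides the sign of the smaller values. Mitochondrially encoded genes took 28.9 to 30.2% of all FPKM in control and 22.1 to 24.6% in ANG II. Over all genes, 2708 were called higher and 273 lower as deposited, against 1671 and 806 with median-of-ratios scaling, 1413 and 986 with quantile normalization and 1854 and 625 without mitochondrially encoded and top 10 genes. With median-of-ratios scaling the median of all genes moved by -0.14 on the log2 scale and that of the 10 factors from -0.01 to -0.24. Under this scaling no factor was higher by adjusted p and 5 were lower, namely Srf, Mef2a, Nkx2-5, Gata4 and Mef2d, with log2 fold changes between -0.34 and -0.26 and limma adjusted p from 0.000791 to 0.0236; none passed the fold change threshold. Over all genes, 5357 of 19364 passed the adjusted p there. The same 5 were lower by adjusted p without mitochondrially encoded and top 10 genes, where 5154 of 19338 genes passed it. With quantile normalization 4 were lower (all but Gata4) and Tbx20 higher, and 5395 of 19364 genes passed. Scaled on cardiomyocyte markers instead, all 10 factors lay above 0, Tbx20 and Hand2 were called, and Mef2c and Mef2d passed the adjusted p alone, where 5344 of all 19364 genes were called (5250 higher and 94 lower) and 10654 passed the adjusted p. Of the target genes, 6 were called higher and 7 lower with median-of-ratios scaling, and 8 higher and 0 lower when centred on cardiomyocyte markers, a list that shares genes with the targets. A single factor per library moves all 10 values by nearly the same amount and so leaves their order nearly fixed. Under quantile normalization, which can change the order, Tbx20 was the highest at 0.27, followed by Mef2c at 0.11 and Hand2 at 0.071.

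**Figure D5:**
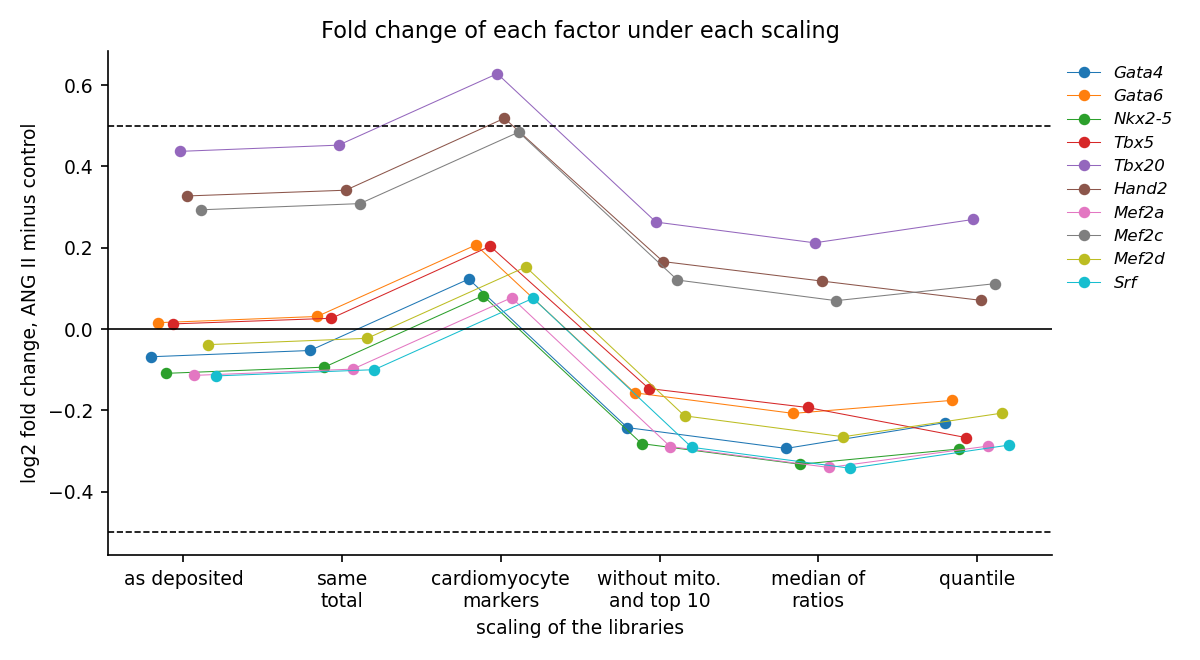
Log2 fold change of each factor (ANG II minus control) as deposited and under 5 other scalings of the libraries, with a point per factor and thin lines joining the points of 1 factor; dashed lines mark 0.5 in each direction. Tbx20, Hand2 and Mef2c lie above the other 7 in every column, and all 10 lie above 0 when libraries are centred on cardiomyocyte markers.

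Genes with the nearest profiles were sought for the 3 factors with the largest absolute log2 fold change, as the smallest root mean square difference of log2(FPKM + 1), taken relative to the control mean, over the 8 libraries among 12947 genes. Among the nearest to Tbx20 were Dmd (0.0793) and Cachd1 (0.0798). For Hand2 they were Tmem97 (0.0767), Pms1 (0.107) and Decr2 (0.110), and for Mef2c they were St8sia4 (0.0464), Cry2 (0.0486) and Slc11a2 (0.0493). Dmd, which encodes dystrophin, averaged 47.5 FPKM in control against 65.9 FPKM in ANG II, a log2 fold change of 0.46.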

How the data were processed

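RNA-seq had been carried out on left ventricles of wild-type mice infused with saline or ANG II for 7 days, with 4 libraries per group. The table analysed here was deposited by the authors in FPKM, that is fragments relative to the length of the transcript and to the library's depth. Each library had its column, and the submitters' processing notes name Bowtie2, HISAT and RSEM without saying which did what. The genome build, the annotation and the use of strand were not given in the sources used here. All 55679 genes were kept as deposited. Gene positions came from GENCODE M21 (GRCm38), which holds 55141 of the gene IDs. Multiplied by mean transcript length, low FPKM values were whole multiples of a library-wide unit, which gave 14455654 to 16564908 fragments per library. Of values under 60 fragments, 99.1 to 99.2% lay within 0.05 of a whole number for genes with 1 transcript, on which the unit had been fitted. For genes with several transcripts, which were not used in that fit, the share was 97.1 to 97.7%.

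Groups were compared with limma 3.58.1 under R 4.3.3, fitted without covariates and moderated with a mean-variance trend, on log2(FPKM + 1) of all 8 libraries. The 19364 genes averaging 0.1 FPKM or more entered. Two-sided p-values were adjusted over these genes (Benjamini-Hochberg), and a gene was called at an adjusted p under 0.05 with an absolute log2 fold change above 0.5, the thresholds that the study names without a base. The pseudocount and the filter were choices of this work. The pseudocount makes log2 fold changes smaller, more so at low FPKM, as for Mrtfa, Tbx2 and Tbx18. For ratios of 2 genes within a library, an exact permutation test (two-sided, 70 allocations) was used. The limma step was tested on simulated data. Alternatives changed the pseudocount, filter, scaling, variance trend, fold change threshold, replicate number as a block, test (voom on recovered fragments) and each library left out. Leaving out control 3 and ANG II 3 together was chosen after the data had been seen.

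The members and the gene lists were chosen with earlier results of these data known. Named are all 10 members, and from each other list the called genes (at most 6, by absolute log2 fold change) and the gene most abundant in control. For the 3 members with the largest absolute log2 fold change, the 3 genes with the nearest profile are named, except 1 that is not reported here. Other genes were named after their values were seen. Promoter windows of 300 bases came from RefSeq (GRCm38.p6). Python 3.11.15, numpy 2.4.6, pandas 2.3.3 and matplotlib 3.10.9 were used.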

Additional observations from a re-analysis of the deposited data

Results flagged for a closer look

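Among the 46 groups of 4 libraries examined, 4 held a library whose gap to the nearest of the others exceeded Dixon's 95% critical share of the group's range; chance flags about 1 group in 20. Mef2a was at 81.0 FPKM in ANG II 4 and at 71.3 to 72.2 FPKM in the other ANG II libraries. Tbx5 was at 10.1 FPKM in ANG II 3 and at 8.22 to 8.46 FPKM in the others. Fhl2 was at 1429 FPKM in control 4, against 1572 to 1593 FPKM in the other controls. Acta1 was at 743 FPKM in control 4, against 348 to 404 FPKM in the other controls.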

How the results depend on the processing

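For the 10 factors, 0 were called in all but 2 of the 22 alternatives: 2 (Tbx20 and Hand2) when libraries were centred on cardiomyocyte markers, and 2 (Tbx20 and Mef2c) by adjusted p alone. Called coregulators numbered 1 with median-of-ratios scaling and 1 without mitochondrially encoded and top 10 genes, 4 when centred on cardiomyocyte markers, 4 by adjusted p alone and 0 above a log2 fold change of 1, against 2 as reported; with quantile normalization they were 2, but with Myocd (lower) in place of Mrtfa. Called family relatives numbered 1, 0 and 1 with median-of-ratios scaling, quantile normalization and removal of mitochondrially encoded and top 10 genes, 3 when centred on cardiomyocyte markers, 3 by adjusted p alone and 0 above a log2 fold change of 1 (795 of all 19364 genes), against 2. Called target genes numbered 13 with median-of-ratios scaling, 14 by adjusted p alone and 5 above a log2 fold change of 1, against 8; without mitochondrially encoded and top 10 genes only 20 of the 27 could be tested. Centred on cardiomyocyte markers, log2 fold changes turned positive for Gata4 (0.12), Mef2a (0.077), Mef2d (0.15), Srf (0.076) and Nkx2-5 (0.082). They turned negative for Gata6 and Tbx5 with median-of-ratios scaling (-0.21 and -0.19), quantile normalization (-0.18 and -0.27) and removal of mitochondrially encoded and top 10 genes (-0.16 and -0.15), and for Tbx5 without control 3 and ANG II 3 (-0.033). The cause was not tested.

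With 1 library left out, called factors stayed at 0, coregulators and relatives at 2 each, and target genes ran from 8 to 10. Log2 fold changes ran from -0.041 to 0.098 for Gata6, -0.054 to 0.13 for Tbx5, -0.13 to -0.0028 for Gata4, -0.080 to -0.012 for Mef2d, -0.18 to -0.044 for Srf and -0.17 to -0.043 for Nkx2-5. The log2 ratio differences ran from -0.16 to -0.01 for Gata4 to Gata6, -0.11 to -0.047 for Mef2a to Mef2d (exact p from 0.0286, without control 3, to 0.314), 0.28 to 0.42 for Mef2c to Mef2d (exact p from 0.0286, without ANG II 4, to 0.0857) and -0.56 to -0.27 for Tbx5 to Tbx20. Equal replicate numbers did not deviate together (correlations of -0.03 to 0.06 across genes), so the replicate block is given once: it left 0, 2, 2 and 8 calls in the 4 lists and gave the Mef2c to Mef2d difference, 0.34 by construction, an exact p of 0.125, the smallest that 4 pairs allow. Counting error, up to 6.97% per library for Tbx5, and 4 libraries per group limit the detectable change.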
